A study of Mus musculus with 6 samples.

Results

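The genes described here carry, make, bind or degrade heme. They are the alpha globin genes Hba-a1 and Hba-a2, the adult beta globin genes Hbb-bs and Hbb-bt, the heme synthesis genes Alas2, Alas1, Cpox and Fech, the plasma heme carrier gene Hpx and the reductase gene Blvrb. They were taken by exact gene name from the table of gene counts, which lists 34745 genes, and all 10 were found. Bulk RNA-Seq had been run on livers of C57BL/6J mice aged 8 to 10 weeks, all wild type, all fasted for 12 hours and all male by the methods of the study, which the sex-linked genes of the saline libraries go against. The APAP group had received an intraperitoneal overdose of acetaminophen (APAP, 300 mg/kg) 12 hours before the liver was taken, and the control group had received saline. The labels name 3 livers per group. The libraries analysed were APAP replicates 1 and 3 plus the saline libraries WT1, WT2 and WT3, which were read as saline because the remaining columns are named for APAP. APAP replicate 2 was not analysed here.

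Heme is an iron-holding ring made partly in mitochondria and partly in the cytosol. The first enzyme, 5-aminolevulinate synthase, has a form that most tissues use (Alas1) and a form of red cell precursors (Alas2). Cpox oxidizes coproporphyrinogen late in the pathway and Fech inserts iron in the last step. In red cell precursors most heme goes into hemoglobin, which joins alpha and beta globin chains, whereas in hepatocytes much of it goes into cytochrome P450 enzymes and Alas1 is held down by heme itself. Hepatocytes also secrete Hpx, which binds free heme in plasma. Heme oxygenase (Hmox1, Hmox2) opens the ring to biliverdin, and biliverdin reductases (Blvra, Blvrb) reduce biliverdin before bilirubin is conjugated by Ugt1a1 and excreted.

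Within each globin pair, the coding sequences are almost the same, and the bases that separate them decide how far a read can be assigned to either gene. The coding sequences of Hba-a1 and Hba-a2 span 426 bases and differ at 1 base, and those of Hbb-bs and Hbb-bt span 441 bases and differ at 1 base. The 41 bases around each difference, in exon 3 and in GRCm38, are given in lower case with the differing base in capitals, 5′ to 3′ on the strand of the gene.
Hba-a1, chr11:32284323-32284363, plus strand: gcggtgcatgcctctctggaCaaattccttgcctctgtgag
Hba-a2, chr11:32297140-32297180, plus strand: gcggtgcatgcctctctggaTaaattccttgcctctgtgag
Hbb-bs, chr7:103826672-103826712, minus strand: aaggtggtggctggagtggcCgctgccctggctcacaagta
Hbb-bt, chr7:103812663-103812703, minus strand: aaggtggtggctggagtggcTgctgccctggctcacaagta
Of the 50-base words in the longest protein-coding transcript, 67.5% for Hba-a1, 86.9% for Hba-a2, 65.8% for Hbb-bs and 58.3% for Hbb-bt also occur in transcripts of another gene. The split of reads within each pair is therefore uncertain, and sums over each pair are given beside the values of the genes. How reads that match both genes were counted is not given. If they were left out, the globin levels and the sums alike would be too low, which was not tested. The shared percentage was 5.12 for Fech, 0.820 for Cpox and 0 for the remaining 4 genes.

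The promoters of 9 of the 10 genes were matched in RefSeq (GRCm38.p6). The 110 bases before the RefSeq start are printed for an alpha globin gene and for Hpx, as a gene of red cell precursors and a gene of hepatocytes, with the letters of the TATA box (TATAA), the CCAAT box (CCAAT), the GATA motif (GATAA) and the CACCC box (CACCC) on either strand in capitals.
Hba-a2, chr11:32296382-32296491, plus strand: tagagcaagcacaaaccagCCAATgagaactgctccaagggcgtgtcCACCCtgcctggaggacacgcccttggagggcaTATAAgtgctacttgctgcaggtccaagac
Hpx, chr7:105600117-105600226, minus strand: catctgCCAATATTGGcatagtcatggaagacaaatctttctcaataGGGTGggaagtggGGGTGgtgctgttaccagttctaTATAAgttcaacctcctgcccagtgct
The TATA box letters lay 30 to 26 bases before the start of Hba-a2 and 27 to 23 bases before that of Hpx. In all 4 globin promoters, each of the 4 motifs was found in the 250 bases before the start. Among 32851 promoters searched over the same 250 bases, 22.8% held the TATA letters, 33.8% the CCAAT letters, 22.6% the GATA letters and 52% the CACCC letters. These letters were chosen with the sequences in view, and a match describes letters, not a bound site.

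The libraries held between 13378445 and 15976339 counts, and levels are given as CPM, counts scaled to library sizes normalized by edgeR's trimmed mean of M-values (TMM). A count of 3 corresponded to between 0.176 and 0.269 CPM, a floor that covers counting error only. Of 13734 genes tested by edgeR's quasi-likelihood test, 7.23% had a Benjamini-Hochberg adjusted p under 0.05, the threshold used here for calling a gene changed. Albumin took 6.56% to 11.3% of all counts, the level of a liver library. Xist, the RNA of the inactive X chromosome of females, ran from 290 to 914 CPM over the saline libraries, against 0.764 and 1.73 CPM after APAP. By contrast, the Y-linked genes Ddx3y, Eif2s3y, Uty and Kdm5d were present in both APAP libraries and had at most 1 count in any saline library. The saline libraries thus go against the male sex named in the methods of the study. Treatment and sex-linked expression cannot be told apart in any result given here, and Alas2 is itself on the X chromosome. Skeletal muscle genes also differed between libraries: the summed level of 10 such genes, a list chosen after the values were seen, was 0.940 and 628 CPM in APAP replicates 1 and 3 and 2.33, 990 and 1953 CPM in WT1, WT2 and WT3. In whole liver, fewer cells of a type and less RNA per cell cannot be told apart.

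With APAP, none of the 10 genes was called changed. The count was 0 of 10, against 7.23% of all genes tested. Unadjusted p was under 0.05 for 1 gene, Fech, beside 3413 of the 13734 genes tested. By DESeq2 and by edgeR's likelihood ratio test 1 of the 10, again Fech, was called, against 13.4% of all genes in each of these tests, and by edgeR's exact test 0 were, against 12.9%. With the thresholds of the study (1.5-fold or more, P under 0.05 before adjustment) 1 of the 10 passed, and it was lower with APAP, against 23.5% of all genes in either direction and 11.2% lower. The CPM of the groups did not overlap for 3 of the 10, Alas1 and Hpx being higher and Fech lower with APAP, against 44.1% of all genes tested. The median log2 fold change of the 10 genes was 0.33, beside 0.03 over all genes tested. That median lay between the values of Hba-a2 and Hbb-bs. Without APAP replicate 3, all the globins listed here and Alas2 turned to lower values with APAP.

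**Figure D1:**
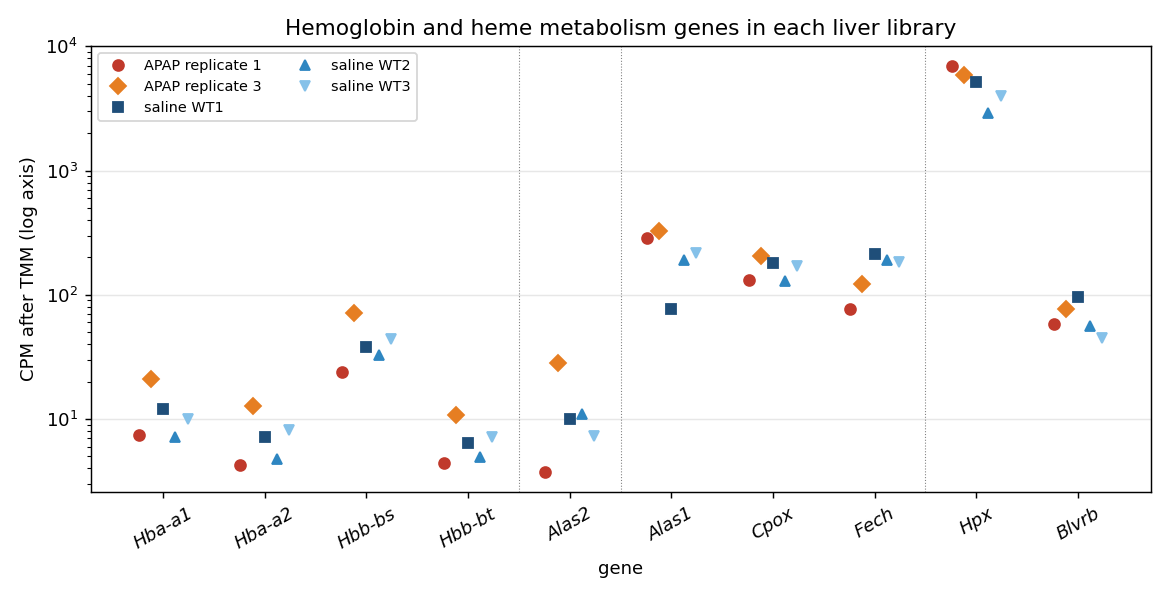
CPM of the 10 hemoglobin and heme genes in each of the 5 libraries, on a log axis, with a symbol for each library. The globins and Alas2 are highest in APAP replicate 3 and, for all but Hba-a1, lowest in APAP replicate 1, whereas Alas1 and Hpx are higher and Fech is lower with APAP without overlap.

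The order of levels in the saline livers was set per length, as RPKM over the exons of GENCODE M21. Hpx led with a mean of 2689 RPKM, far above Hbb-bs at 49.7 RPKM. Alas1, Cpox and Blvrb followed at 26.1, 24.1 and 23.6 RPKM, and their saline ranges overlapped one another. Fech at 14.1, Hba-a1 at 12.0, Hba-a2 at 10.01 and Hbb-bt at 8.80 RPKM came next, with ranges that overlapped between each gene and its neighbour in this order. Alas2 was lowest at 3.92 RPKM, and its highest saline library (4.56 RPKM) lay below the lowest of Hbb-bt (7.09 RPKM). The order in the middle depends on the length used: with the longest transcript in place of all exons, Blvrb (63.8 RPKM) stood above Hbb-bs (60.8 RPKM). The places of the globins also depend on how reads matching both genes of a pair were counted.

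The globin genes carry oxygen in red cells, and few reads in liver were counted for them. Reads that match both genes of a pair may be missing from these counts. Together the 4 genes took between 0.00487% and 0.0127% of all counts. The summed globin level was 40.2 and 116 CPM in APAP replicates 1 and 3 and 63.3, 49.7 and 69.5 CPM in WT1, WT2 and WT3. The APAP libraries thus lay on either side of the saline libraries, and the groups overlapped. The mean was 78.2 ± 53.8 CPM with APAP (SD, n = 2) and 60.8 ± 10.1 CPM with saline (SD, n = 3), a ratio of 1.29. An exact two-sided permutation test over the 5 libraries gave p = 0.8, where the 10 possible assignments allow no p below 0.2. Without APAP replicate 3 the ratio was 0.661, so its direction rests on that library.

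Alpha globin was also highest in APAP replicate 3. Hba-a1 (chr11:32283511-32284465) was at 7.46 and 21.02 CPM after APAP, against 12.1, 7.17 and 10.02 CPM after saline. Its log2 fold change was 0.55 (SE 0.45), with an adjusted p of 0.507 in edgeR's quasi-likelihood test. Hba-a2 (chr11:32296489-32297298) was at 4.23 and 12.6 CPM after APAP, against 7.17, 4.78 and 8.08 CPM after saline. The 2 groups overlapped for each gene, and the lowest library was WT2 for Hba-a1 and APAP replicate 1 for Hba-a2. The log2 fold change of Hba-a2 was 0.33 (SE 0.49, edgeR adjusted p = 0.721), and that of the summed alpha globins, which does not depend on how reads were split within the pair, was 0.46 (edgeR adjusted p = 0.570).

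Among the beta globin reads as assigned, most went to Hbb-bs. Hbb-bs (chr7:103826534-103828096) was at 24.1 and 71.8 CPM after APAP, against 37.6, 32.7 and 44.2 CPM after saline. Hbb-bt (chr7:103812524-103813996) was at 4.41 and 10.8 CPM after APAP, against 6.36, 4.98 and 7.22 CPM after saline. APAP replicate 1 was the lowest library and APAP replicate 3 the highest for both. The log2 fold changes were 0.33 (SE 0.43) for Hbb-bs and 0.30 (SE 0.42) for Hbb-bt, with edgeR adjusted p of 0.685 and 0.711. The summed beta globins gave 0.32 (edgeR adjusted p = 0.684). Without APAP replicate 3 all 4 globin genes turned to lower values with APAP, with log2 fold changes of −0.40 for Hba-a1, −0.67 for Hba-a2, −0.67 for Hbb-bs and −0.50 for Hbb-bt.

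Ratios between globins, which do not depend on the normalization, differed much less between the APAP libraries than the levels did. The ratio of alpha to beta globin counts was 0.410 and 0.407 after APAP, against 0.438, 0.317 and 0.352 after saline. The ratio of Hbb-bs to Hbb-bt counts was 5.47 and 6.63 with APAP and 5.92, 6.57 and 6.12 with saline. Both ratios overlapped between the groups, although the summed globin level of APAP replicate 3 was 2.89 times that of APAP replicate 1. The highest saline library was 1.40 times the lowest. Of the genes tested, 2.48% had as high a ratio between APAP replicates 3 and 1.

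Alas2 (chrX:150547375-150570638), the erythroid form of the first enzyme, varied most between the APAP libraries. It was at 3.76 and 28.5 CPM in APAP replicates 1 and 3, against 10.04, 11.0 and 7.28 CPM after saline. APAP replicate 3 was the highest and APAP replicate 1 the lowest of all 5, a ratio of 7.58 between them that was reached by 0.677% of the genes tested. Its log2 fold change was 0.77 (SE 0.70, edgeR adjusted p = 0.549), −1.33 without APAP replicate 3 and 1.60 without APAP replicate 1. The ratio of globin to Alas2 counts was 10.7 and 4.08 with APAP and 6.30, 4.53 and 9.54 with saline, so the lowest and the highest ratio were both in APAP libraries.

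Further erythroid genes were read to see what stands beside the globins. Of 20 listed erythroid genes in the table, globins and Alas2 included, 10 had enough counts to be tested. Of these 10, 0 were called changed, beside 7.23% of all genes. Unadjusted p was under 0.05 for 1 of them, beside 3413 of the 13734 genes tested. DESeq2 and edgeR's likelihood ratio and exact tests also called 0 erythroid genes, beside 13.4%, 13.4% and 12.9% of all genes. The median log2 fold change of the 10 erythroid genes was −0.17, against 0.03 over all genes tested. Defining genes of red cell precursors were near or at 0: 9 of the 20 had under 10 counts in every library, among them Gata1 (the erythroid transcription factor), Epb42 (a membrane skeleton protein) and Rhag, and Tspo2 had no count in any library. Slc4a1, the anion exchanger of the red cell membrane, was at 0.176 and 0.371 CPM after APAP, against 0, 0 and 1.002 CPM after saline. The genes just named had at most 15 counts in any library. Of the 10 erythroid genes tested, the 4 globins and Alas2 had fitted values above 0 and the other 5 (Klf1, Sptb, Ank1, Car1 and Epor) had fitted values below 0.

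Klf1, a transcription factor that activates beta globin, did not follow the globins. It was at 1.12 and 0.494 CPM after APAP, against 2.60, 1.59 and 2.47 CPM after saline. All 3 saline libraries lay above both APAP libraries, with a log2 fold change of −1.45 (SE 0.58, edgeR adjusted p = 0.179). Sptb (beta spectrin) was at 0.470 and 3.83 CPM after APAP, against 2.69, 4.78 and 8.55 CPM after saline. Ank1 (ankyrin) was at 0.118 and 1.17 CPM after APAP, against 0.0896, 2.46 and 5.08 CPM after saline. Both genes were higher in APAP replicate 3, WT2 and WT3, the libraries with many skeletal muscle counts, than in APAP replicate 1 and WT1. The part of muscle RNA in these values was not tested. Car1, a carbonic anhydrase of red cells, was at 0.529 and 1.05 CPM after APAP, against 2.33, 2.59 and 1.002 CPM after saline (log2 fold change −1.31, SE 0.64, edgeR adjusted p = 0.266). Epor, the erythropoietin receptor, was at 0.705 and 0.556 CPM after APAP, against 0.896, 0.930 and 1.14 CPM after saline (log2 fold change −0.64, SE 0.56, edgeR adjusted p = 0.529). The groups overlapped for Car1 and did not for Epor. Klf1 had between 8 and 37 counts per library, and Epor between 9 and 17. Of the 10 erythroid genes tested, 2 did not overlap between the groups, both lower with APAP. Over all genes tested, 44.1% did not overlap and 20.1% were lower without overlap.

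**Figure D2:**
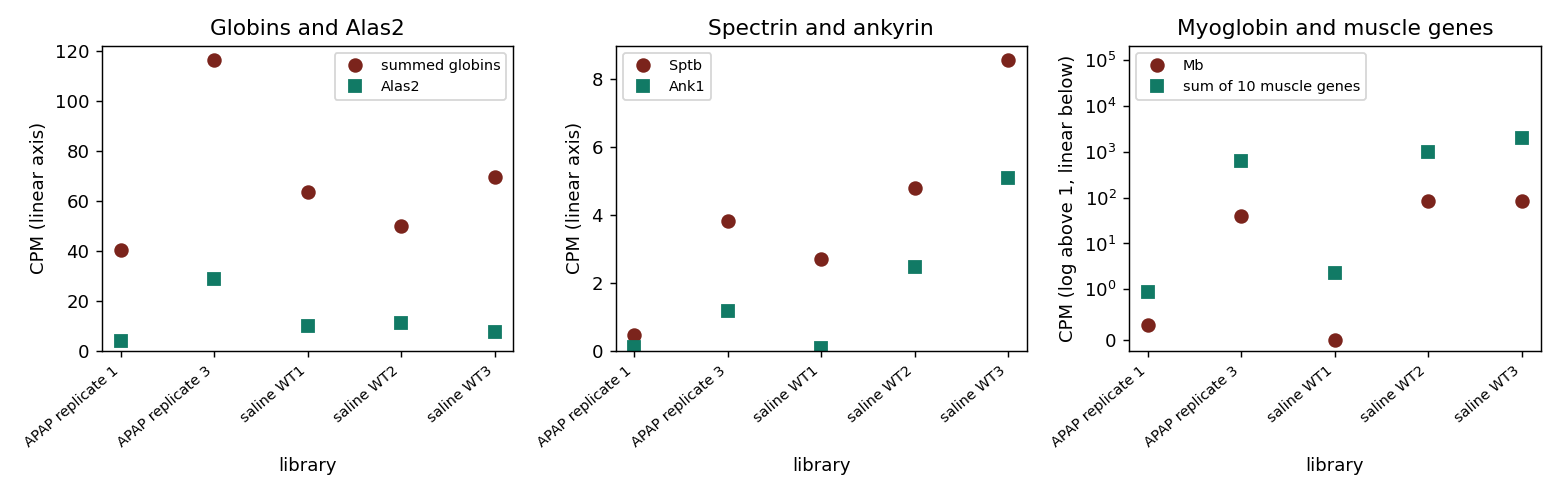
CPM by library of the summed globins and Alas2 (linear axis), of Sptb and Ank1 (linear axis), and of Mb with the sum of 10 skeletal muscle genes (log axis above 1 CPM, linear below). The globins and Alas2 peak in APAP replicate 3 (116 and 28.5 CPM), whereas the muscle sum is high in APAP replicate 3, WT2 and WT3 (628 to 1953 CPM) and at most 2.33 CPM in the other 2 libraries.

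Other members of the globin family were measured as well. Of 9 listed, 6 embryonic or theta-type globin genes had no count in any library. Mb (myoglobin, the oxygen store of muscle) was at 0.294 and 38.8 CPM after APAP, against 0, 86.1 and 84.9 CPM after saline. Mb was high in the same 3 libraries as the skeletal muscle genes and almost absent from APAP replicate 1 and WT1. Cygb (cytoglobin), a globin of hepatic stellate cells, was at 8.64 and 12.2 CPM after APAP, against 10.5, 8.44 and 7.68 CPM after saline, with overlapping groups. The summed globins were at 116, 49.7 and 69.5 CPM in APAP replicate 3, WT2 and WT3, which had many muscle counts, and at 40.2 and 63.3 CPM in APAP replicate 1 and WT1, which had few. The part of muscle RNA in the globin values was not tested.

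Alas1 (chr9:106233455-106248126), the rate-limiting enzyme of hepatic heme synthesis, was the synthesis gene with the highest fitted value. It was at 285 and 327 CPM after APAP, against 76.7, 191 and 216 CPM after saline. Both APAP libraries lay above all saline libraries, and WT1 was well below the other saline libraries. The log2 fold change was 0.92 (SE 0.43), with an unadjusted p of 0.0679 and an adjusted p of 0.239 in edgeR's quasi-likelihood test, so Alas1 was not called. Without WT1 it was 0.60. Among the libraries with few muscle counts, Alas1 was at 285 CPM in APAP replicate 1 and 76.7 CPM in WT1. Among those with many, it was at 327 CPM in APAP replicate 3 and at 191 and 216 CPM in WT2 and WT3. The part of muscle RNA in the Alas1 values was not tested.

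Fech, ferrochelatase, on chromosome 18, had the lowest unadjusted p of the 10 genes. It was at 77.2 and 123 CPM after APAP, against 213, 189 and 182 CPM after saline. The groups did not overlap, and the saline libraries differed little among themselves. The log2 fold change was −0.96 (SE 0.27), with an unadjusted p of 0.00994 and an adjusted p of 0.0841 in edgeR's quasi-likelihood test, which misses the threshold of 0.05. The adjusted p was 0.0493 in edgeR's likelihood ratio test and 0.00866 in DESeq2, and it ran from 0.00866 to 0.392 over the tests, scalings, filters and left-out libraries tried. In the libraries with few muscle counts, Fech was at 77.2 CPM in APAP replicate 1 and 213 CPM in WT1. In those with many, it was at 123 CPM in APAP replicate 3, 189 CPM in WT2 and 182 CPM in WT3. The part of muscle RNA in the Fech values was not tested.

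Cpox (chr16:58670208-58680391), which acts between the first and the last enzyme, showed no separation. It was at 131 and 206 CPM after APAP, against 179, 130 and 172 CPM after saline. The saline libraries lay within the range of the APAP libraries but for WT2, which was just under it. Cpox had a log2 fold change of 0.07 (SE 0.28, edgeR adjusted p = 0.905), which became −0.30 without APAP replicate 3.

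Ratios between the synthesis genes set them side by side within a library. The ratio of Alas1 to Fech counts was 3.69 and 2.67 with APAP and 0.360, 1.01 and 1.19 with saline. The ratio of Cpox to Fech counts was 1.70 and 1.68 with APAP and 0.838, 0.688 and 0.945 with saline. Both ratios were higher in each APAP library than in each saline library. For Alas1 to Fech this had to follow, because Alas1 was higher and Fech lower with APAP without overlap. The Cpox to Fech ratio has the same denominator, and how often ratios of other genes separate the groups was not tested. An exact two-sided permutation test over 2 and 3 libraries cannot give a p below 0.2, and no other test of these ratios was run.

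**Figure D3:**
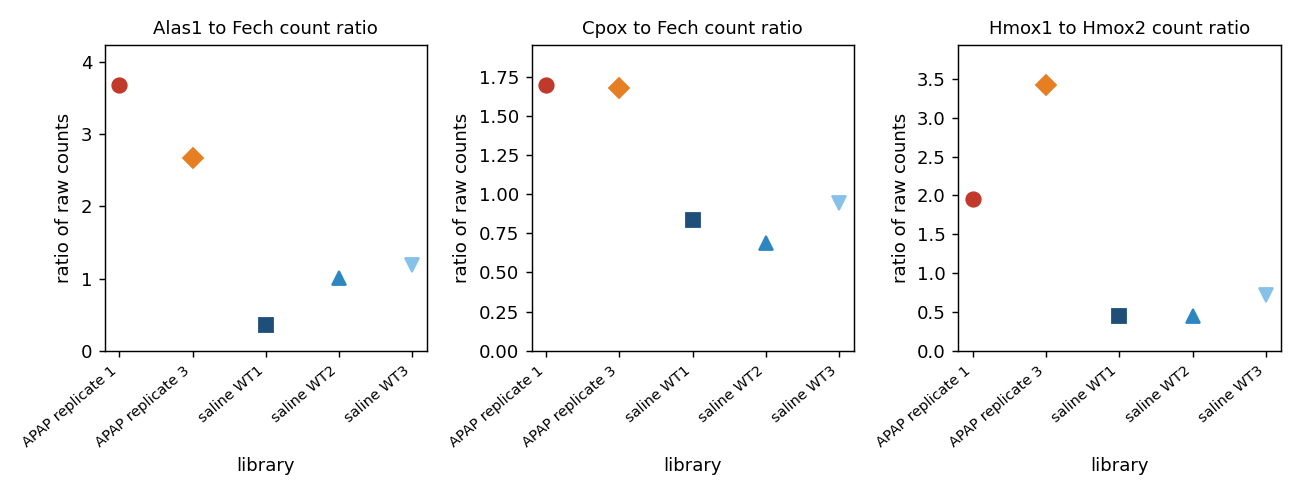
Ratios of raw counts within each of the 5 libraries (linear axes from 0), for Alas1 to Fech, Cpox to Fech and Hmox1 to Hmox2. In each panel both APAP libraries lie above the 3 saline libraries, and for Alas1 to Fech they are at 3.69 and 2.67 against at most 1.19. For Alas1 to Fech this follows from the separation of Alas1 and of Fech themselves.

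Over the whole pathway of heme synthesis, 0 of 9 genes were called changed, and 1, Fech, had an unadjusted p under 0.05. The share of all genes called was 7.23%, and 3413 of the 13734 genes tested had an unadjusted p under 0.05. DESeq2 and edgeR's likelihood ratio test called 1 of the 9, beside 13.4% of all genes, and edgeR's exact test 0, beside 12.9%. Their median log2 fold change was −0.05, against 0.03 over all genes tested. Urod, which forms coproporphyrinogen, was at 24.1 and 37.2 CPM after APAP, against 72.4, 50.1 and 37.2 CPM after saline. APAP replicate 3 and WT3 were nearly equal for Urod, and its log2 fold change was −0.80 (SE 0.34, edgeR adjusted p = 0.207). Alad, Uros and Ppox, which act at other steps of the chain, had fitted log2 fold changes between −0.16 and 0.10.

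Hpx (chr7:105591613-105600116), the carrier that takes free heme from plasma to the liver, was the most abundant of the 10 genes. It was at 6928 and 5861 CPM after APAP, against 5145, 2937 and 4011 CPM after saline. Both APAP libraries lay above all saline libraries, though APAP replicate 3 exceeded WT1 by little. The log2 fold change was 0.67 (SE 0.37), and the adjusted p of 0.322 in edgeR's quasi-likelihood test missed the threshold. With counts scaled to library size only it was 1.10 (edgeR adjusted p = 0.0468), a scaling that leaves out the TMM factors (1.27 and 1.09 for APAP, 0.783 to 0.980 for saline). As a share of all counts, Hpx was at 0.881% and 0.639% with APAP and at 0.403%, 0.288% and 0.376% with saline. Hp (haptoglobin), which binds free hemoglobin rather than heme, was at 4812 and 5529 CPM after APAP, against 4560, 2667 and 6225 CPM after saline, with overlapping groups.

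Blvrb (chr7:27447978-27466144), a reductase of biliverdin and flavins, did not separate the groups. It was at 58.3 and 76.8 CPM after APAP, against 96.0, 55.7 and 45.0 CPM after saline. The saline libraries spanned a wider range than the APAP libraries. Blvrb had a log2 fold change of 0.04 (SE 0.35, edgeR adjusted p = 0.955), and its sign changed with the scaling and with the library left out.

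**Figure D4:**
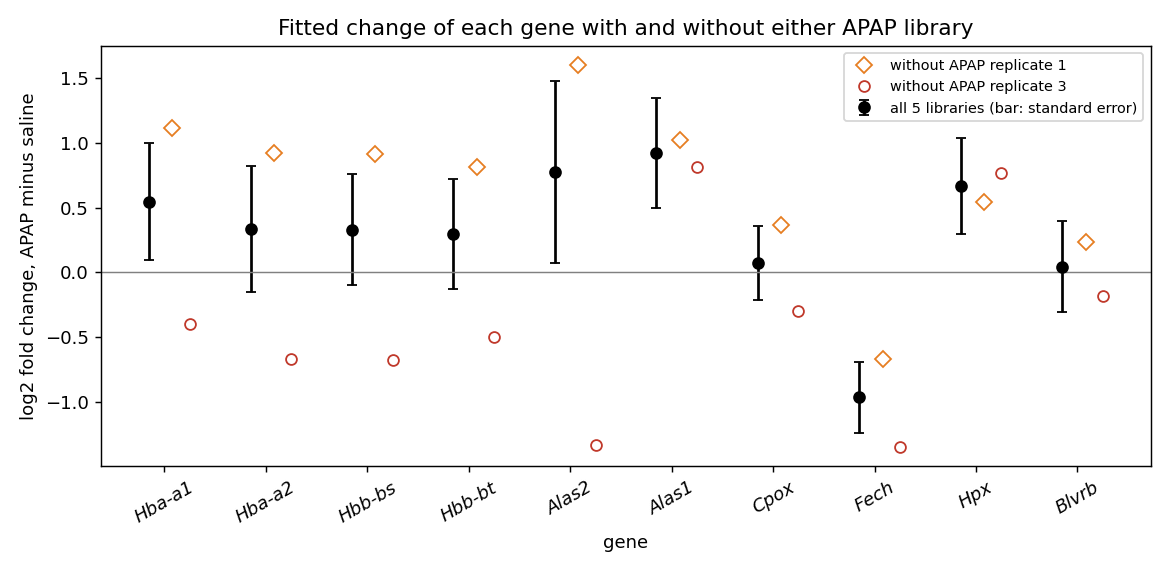
Fitted log2 fold changes (APAP minus saline) of the 10 genes with their standard errors from edgeR's quasi-likelihood fit, beside the values without APAP replicate 3 and without APAP replicate 1. Fech is below 0 and Alas1 and Hpx are above 0 in all fits shown, whereas the globins, Alas2, Cpox and Blvrb change sign when APAP replicate 3 is left out.

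Among genes of heme breakdown and scavenging, Hmox1 and Ugt1a1 were called, and Hpx and Blvrb were not. Of 10 genes tested, 1 was called higher (3.70% of all genes) and 1 lower (3.53% of all genes). The median log2 fold change was −0.06, against 0.03 over all genes tested. The groups did not overlap for 4 of the 10, beside 44.1% of all genes tested. DESeq2 and edgeR's likelihood ratio and exact tests each called 1 higher and 1 lower. The shares of all genes called in either direction were 13.4%, 13.4% and 12.9%. Hmox1, the inducible heme oxygenase, was at 89.9 and 122 CPM after APAP, against 28.1, 16.1 and 41.4 CPM after saline. It rose by a log2 fold change of 1.89 (SE 0.38, edgeR adjusted p = 0.0358). Ugt1a1, which conjugates bilirubin, was at 297 and 224 CPM after APAP, against 929, 655 and 731 CPM after saline. Ugt1a1 fell by 1.57 on the log2 scale (SE 0.30, edgeR adjusted p = 0.0303). For both genes the groups were well apart, and neither was called when APAP replicate 1, APAP replicate 3, WT1 or WT2 was left out (log2 fold change 1.60 to 2.10 for Hmox1 and −1.78 to −1.39 for Ugt1a1).

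The ratio of Hmox1 to Hmox2 counts, the inducible over the constitutive oxygenase, was 1.96 and 3.43 with APAP and 0.447, 0.452 and 0.711 with saline. The ratio was higher in each APAP library than in each saline library. Hmox2 itself was at 45.9 and 35.5 CPM after APAP, against 62.8, 35.7 and 58.3 CPM after saline, and Blvra, the main biliverdin reductase, at 9.93 and 11.6 CPM after APAP, against 10.3, 7.57 and 5.55 CPM after saline.

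Heme and porphyrin transport was read over 12 genes, of which 1 was called higher (3.70% of all genes) and 1 lower (3.53% of all genes). With edgeR's likelihood ratio and exact tests 1 was called higher and 4 lower, and with DESeq2 1 higher and 5 lower. The shares of all genes called in either direction were 13.4%, 12.9% and 13.4%. The groups did not overlap for 2 genes that were higher and 8 that were lower with APAP, against 24.0% and 20.1% of all genes tested, and the median log2 fold change was −0.49. Slc48a1, which carries heme out of lysosomes, was at 110 and 112 CPM after APAP, against 54.0, 40.7 and 31.9 CPM after saline. It rose by a log2 fold change of 1.39 (SE 0.26, edgeR adjusted p = 0.0280). Abcb6, a porphyrin transporter, was at 28.2 and 40.9 CPM after APAP, against 70.4, 71.1 and 67.7 CPM after saline. Abcb6 fell by 1.01 on the log2 scale (SE 0.23, edgeR adjusted p = 0.0479). Tmem14c, which serves porphyrin import into mitochondria, was at 39.4 and 37.8 CPM after APAP, against 123, 93.5 and 64.5 CPM after saline (log2 fold change −1.28, SE 0.31, edgeR adjusted p = 0.0543). Both APAP libraries lay below all saline libraries for Tmem14c, although it missed the threshold. The call of Slc48a1 was lost without APAP replicate 1, APAP replicate 3 or WT2 (log2 fold change 1.37 to 1.41), and that of Abcb6 was lost without any 1 library (−1.32 to −0.77) and with library size only (−0.64).

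Among 12 regulators of heme synthesis and breakdown, 1 was called, and it was lower, beside 3.53% of all genes called lower. Clpx, a mitochondrial unfoldase that acts on 5-aminolevulinate synthase, was at 158 and 114 CPM after APAP, against 417, 471 and 388 CPM after saline. It fell by 1.65 on the log2 scale (SE 0.27, edgeR adjusted p = 0.0196), a call lost without APAP replicate 1 (−1.90), APAP replicate 3 (−1.44) or WT2 (−1.57). Nr1d1, a heme-binding nuclear receptor of the clock, was at 33.8 and 62.1 CPM after APAP, against 14.9, 16.7 and 28.4 CPM after saline (log2 fold change 1.26, SE 0.37, edgeR adjusted p = 0.0904). Bach1, a heme-sensing repressor of Hmox1, was at 56.8 and 98.7 CPM after APAP, against 34.1, 32.6 and 49.4 CPM after saline (log2 fold change 1.01, SE 0.31, edgeR adjusted p = 0.100). Both genes were higher in each APAP library than in each saline library, as were 24.0% of all genes tested. Neither passed the threshold in edgeR's quasi-likelihood test. Over the 12 regulators, edgeR's likelihood ratio and exact tests each called 2 higher and 1 lower, and DESeq2 1 higher and 2 lower. The shares of all genes called in either direction were 13.4%, 12.9% and 13.4%. Nr1i2, which encodes PXR, was at 63.4 and 64.3 CPM after APAP, against 76.3, 92.4 and 107 CPM after saline (log2 fold change −0.52, SE 0.23, edgeR adjusted p = 0.208).

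Enzymes that use heme, other than cytochrome P450, and the reductases Por and Cyb5r3 were counted together over 8 genes. Of these, 2 were called, both lower with APAP, beside 3.53% of all genes called lower, and the median log2 fold change was −0.52. DESeq2 and edgeR's likelihood ratio and exact tests each called 3 lower, beside 13.4%, 13.4% and 12.9% of all genes called in either direction. Suox (sulfite oxidase) was at 30.6 and 40.4 CPM after APAP, against 171, 125 and 121 CPM after saline, and it fell by 1.97 on the log2 scale (SE 0.28, edgeR adjusted p = 0.0125). Cyb5b, a cytochrome b5 of the outer mitochondrial membrane, was at 131 and 193 CPM after APAP, against 661, 638 and 347 CPM after saline, and it fell by 1.76 (SE 0.38, edgeR adjusted p = 0.0424). The groups were separate for both genes. The call of Suox was lost without APAP replicate 1 (−1.78) or WT2 (−2.04), and that of Cyb5b without either APAP library, WT1 or WT2 (−2.08 to −1.50).

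**Figure D5:**
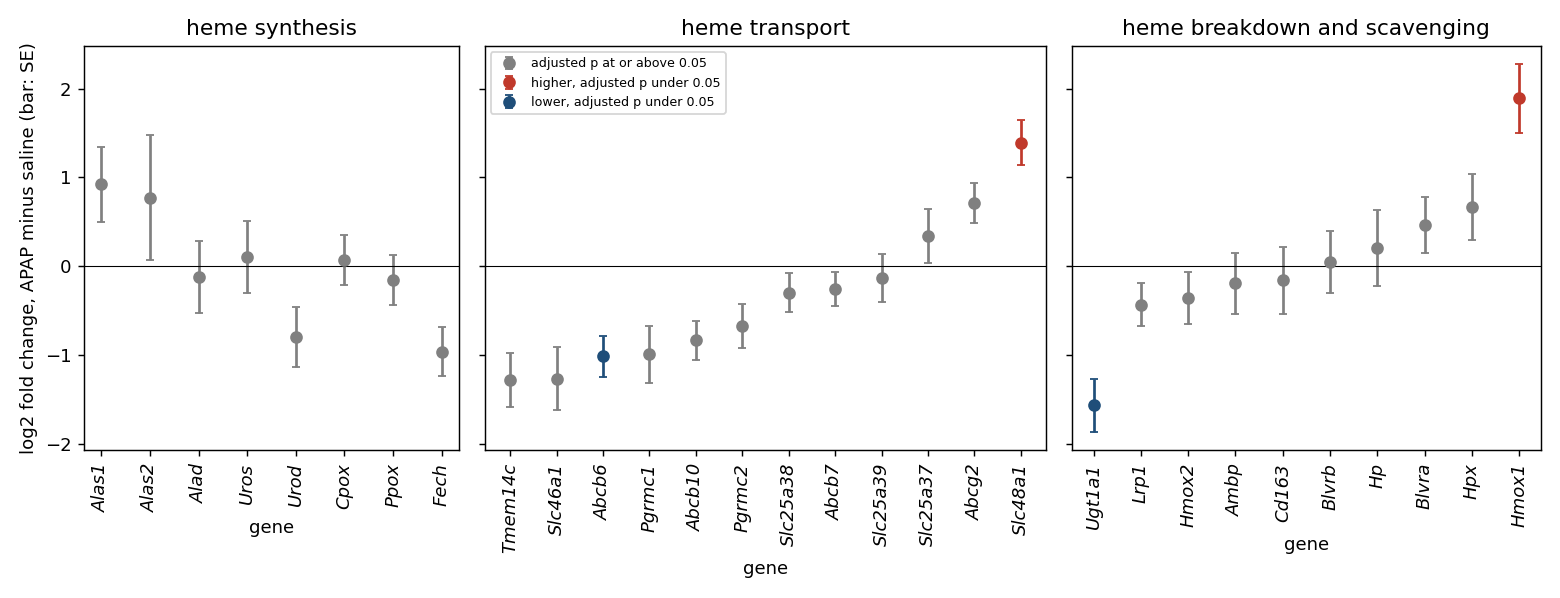
Fitted log2 fold changes (APAP minus saline) with standard errors for genes of heme synthesis, transport, and breakdown and scavenging. Genes with an edgeR adjusted p under 0.05 are coloured, namely Hmox1 and Slc48a1 above 0 and Ugt1a1 and Abcb6 below 0.

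Markers of other cells were read as well, and their sums separated the groups for some cell types and overlapped for others. The summed level of 8 neutrophil genes was 112 and 73.9 CPM with APAP and between 4.57 and 7.82 CPM with saline. Of these, 7 of the 7 tested (S100a8, S100a9, Retnlg, Cxcr2, Mmp8, Csf3r and Camp) were called higher, beside 3.70% of all genes. The log2 fold changes ran from 2.59 to 5.02 for all but Camp, which had no count in any saline library. The sum of 8 hepatocyte genes was 72170 and 118873 CPM with APAP and between 126014 and 176355 CPM with saline. Most of that sum was Alb, at 51544.5 and 89798 CPM with APAP (log2 fold change −0.70, edgeR adjusted p = 0.512). The groups overlapped for 3 of the 8 genes and 5 were lower without overlap, beside 20.1% of all genes. Apoa1 had a fitted value above 0 (0.57). By edgeR's quasi-likelihood test 0 of the 8 were called, beside 7.23% of all genes. Of these 8, 4 had an unadjusted p under 0.05, beside 3413 of the 13734 genes tested. The likelihood ratio and exact tests of edgeR called 2 lower and DESeq2 4. The shares of all genes called in either direction were 13.4%, 12.9% and 13.4%. Among 8 Kupffer cell genes, which mark the macrophages that clear red cells, 1 was called, the iron exporter Slc40a1, which was lower (3.53% of all genes). DESeq2 and edgeR's likelihood ratio and exact tests each called 1 Kupffer cell gene higher and 1 lower. Slc40a1 was at 64.5 and 94.4 CPM after APAP, against 238, 175 and 229 CPM after saline, and it fell by 1.43 on the log2 scale (SE 0.28, edgeR adjusted p = 0.0338). Marco, a scavenger receptor of the same list, was at 56.7 and 123 CPM after APAP, against 30.9, 7.51 and 10.1 CPM after saline (log2 fold change 2.49, SE 0.63, edgeR adjusted p = 0.0625). The sum of the 8 Kupffer cell genes overlapped between the groups, at 298 and 523 CPM after APAP, against 578, 430 and 525 CPM after saline. The sums of 8 genes each overlapped for lymphocytes (5.46 and 7.29 CPM after APAP, 5.95 to 10.4 CPM after saline) and sinusoidal endothelium (131 and 218 CPM, against 146 to 251 CPM), and for platelets they were 7.70 and 6.80 CPM after APAP and 2.92 to 6.01 CPM after saline. The most abundant gene of each of these lists, Cd79a, Fcgr2b and Itga2b, had log2 fold changes of 0.35, −1.03 and 0.12, with edgeR adjusted p of 0.851, 0.203 and 0.912. The part of these cells in the heme and globin values was not tested.

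The genes whose pattern over the 5 libraries was most like that of Alas1, Hpx, the summed globins or Alas2 were found by the root mean square difference of centred log2 CPM among 9727 genes that averaged 5 CPM or more. The 5 nearest to Alas1 were Chd7 (0.151), Ssh2, Sec61a2, Trmt10a and Fam219a. Those nearest to Hpx were Ywhaz (0.0480), Serinc2, Qsox1, Actr3 and Adam10, and those nearest to the summed globins were Rnasek (0.193), Gys2, Sqle, Gm12166 and C6. For Alas2 they were Nox4 (0.314), Gm13339, Nnt, Mcm10 and C6, with larger differences than for the other 3 patterns. C6, a complement gene, was near both the summed globins and Alas2, at 12.2 and 54.6 CPM after APAP, against 20.2, 17.3 and 23.6 CPM after saline.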

How the data were processed

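Raw read counts per gene and library, without normalization, were deposited by the authors, who name HISAT2 as the source of the counts. The labels name GRCm38 (mm10). How reads with several matches were counted, the strand setting and the versions are not given in the sources used here. The 5 columns of FPKM were not used, because only counts were kept for saline columns that match no single sample. The counts were tested in edgeR 4.0.16 (R 4.3.3). The low-count filter was filterByExpr, with a minimum of 10 per library and 15 in total. Libraries were scaled by TMM, and the groups were compared by its quasi-likelihood test (glmQLFTest), with p-values adjusted by Benjamini-Hochberg (threshold 0.05). Every adjusted p credited to edgeR without a further name is from that test. CPM use the TMM-normalized library sizes. Replicates are separate livers by the labels, although nothing links the saline columns to single animals. A design written for 3 libraries per group was kept with 2 APAP libraries.

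The member genes and the gene lists were chosen with earlier results of these data known. By rule, the genes named are the members, every called gene of a list or else its most abundant gene, and the 5 genes most like each of 4 patterns. Klf1, Sptb, Ank1, Car1, Epor, Slc4a1, Marco, the erythroid genes near 0, Cygb, Urod, Alad, Uros, Ppox, Hp, Hmox2, Blvra, Tmem14c, Nr1d1, Bach1 and Nr1i2 were named after their values were seen. Heme transport genes Flvcr1 and Flvcr2 and the erythroid gene Ahsp were not analysed here, and some genes of the lists are counted but not reported here by name. RPKM were computed from the TMM-scaled counts and GENCODE M21 exon lengths. Shared sequence was counted in 50-base words. Alternatives were DESeq2 1.42.0, edgeR's exact and likelihood ratio tests, other scalings and filters, the thresholds of the study and each library left out. The scripts were tested on simulated data. Python 3.11.15 with matplotlib 3.10.9 was used for sequences and plots.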

Additional observations from a re-analysis of the deposited data

How the results depend on the processing

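Over all genes, 993 were called, against 1835 with edgeR's likelihood ratio test, 1776 with its exact test, 2042 with DESeq2, 3228 with the thresholds of the study, and 165 to 922 with a library left out, the lowest without WT2. Of the 10 hemoglobin and heme genes, 1 was called with the likelihood ratio test, with DESeq2, with library size only (Hpx) and with the thresholds of the study. Heme synthesis had 1 call (Fech) with the likelihood ratio test, DESeq2 and the thresholds of the study, and the erythroid list had 1 (Klf1) with the latter. Breakdown and scavenging had 2 calls, 3 with library size only, and 0 to 2 with a library left out (0 without APAP replicate 1, APAP replicate 3, WT1 or WT2). The summed globin log2 ratio ran from −0.61 to 0.94 with a library left out, the lowest without APAP replicate 3. In the same fits the log2 fold change ran from −0.40 to 1.11 for Hba-a1, −0.67 to 0.92 for Hba-a2, −0.67 to 0.91 for Hbb-bs, −0.50 to 0.81 for Hbb-bt, −1.33 to 1.60 for Alas2, −0.30 to 0.36 for Cpox and −0.18 to 0.44 for Blvrb. Blvrb was also −0.00043 with DESeq2 and −0.0014 with size factors. The cause of these reversals was not tested. Fech (−1.35 to −0.66 with a library left out), Alas1 (0.60 to 1.19) and Hpx (0.48 to 0.89) kept their sign. The APAP libraries held 684 and 1880 globin counts. Where a library was left out of the APAP group, the remaining one was assumed to vary like the saline libraries. No paired analysis was possible because the saline columns carry no replicate number of the labels.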
